A study of Mus musculus with 4 samples.

Results

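The accessible regions at 10 AP-1 and immediate early genes (Fos, Fosb, Fosl1, Fosl2, Jun, Junb, Jund, Atf3, Egr1 and Klf6) were described in sorted mouse palate cells, as a check of whether the libraries differed in their response to cell handling. ATAC-seq peak lists, in which a transposase marks open DNA, were merged over 4 libraries wherever peaks shared at least 1 bp. A merged interval is called a region here, and a region belonged to a listed gene when that gene was the nearest protein-coding gene to its midpoint within 100 kb. This gave 36 regions of 39843 in all. The members were chosen by gene name and position, not by a filter on their values, but with earlier results of these data known.

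The tested libraries were 2 mutant libraries of the genotype Shox2Cre/-;Nkx2.5F/F;R26RmTmG, set against 2 control libraries of the genotype Shox2Cre/+;Nkx2.5F/F;R26RmTmG, all from palates at E14.5. Cre was inserted at Shox2, a homeobox gene of the anterior palate, so mutants had no intact Shox2 allele and controls had a single one. Both genotypes carried the floxed Nkx2-5 alleles and a reporter that switches on green fluorescence after Cre has acted, so the controls, titled WT in the labels, were not free of engineered alleles. Cre also acts on floxed alleles, so the sorted cells of either genotype may lack working Nkx2-5, which was not tested. Per the labels, sorted mesenchymal cells positive for that fluorescence were counted and pooled, 50000 for each group, and the labels do not say that libraries of a genotype came from separate embryos. Every spread between libraries may therefore be technical, and a change in the share of cells with an open region cannot be told apart from a change within each cell.

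AP-1 is a family of dimeric transcription factors with a leucine zipper. Jun proteins bind DNA as pairs with each other, with Fos proteins or with ATF proteins, whereas Fos proteins need a Jun partner. Many of these genes are immediate early genes, which cells transcribe within minutes of a stimulus without making new protein first, and tissue dissociation and sorting are known stimuli. In connective tissue and bone, Fos and Fosl2 are also known as regulators of osteoclasts, chondrocytes and osteoblasts.

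All 10 genes had at least 1 region with a peak in every library, and 9 of the 10 had such a region at the gene start, as did 48.4% of all 21631 protein-coding genes. Of the 36 regions, 18 (50%) held a peak in all 4 libraries, against 47.4% of all 39843 regions. The others were held by 3 libraries (4 regions), 2 libraries (9) or 1 library (5). Of the 18 not held by all 4, 16 lay away from the starts.

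Sequences before the starts of 6 genes are shown because the region at each start covered the window in whole and the window held at least 1 of the 3 motifs marked below. Of these genes, Junb is the one whose start was not called in control 2. Each is the 250 bases before the RefSeq start, on the gene's strand, in the GRCm38.p6 build, which is the same build as mm10. They lie at chr12:85473640-85473889 (Fos, plus strand), chr7:19310046-19310295 (Fosb, minus), chr4:95052223-95052472 (Jun, minus), chr1:191183334-191183583 (Atf3, minus), chr13:5861239-5861488 (Klf6, plus) and chr8:84978749-84978998 (Junb, minus). Capitals mark 3 motifs, the core TGACG of the cyclic AMP response element (CGTCA on the other strand), the element with any centre base TGACNTCA (TGANGTCA on the other strand), and TATAAA on the gene's strand.
Fos: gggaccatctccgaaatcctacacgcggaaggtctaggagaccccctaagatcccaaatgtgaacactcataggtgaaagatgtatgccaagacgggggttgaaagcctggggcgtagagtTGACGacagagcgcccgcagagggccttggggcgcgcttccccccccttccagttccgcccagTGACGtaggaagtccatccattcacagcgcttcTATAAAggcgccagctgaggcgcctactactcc
Fosb: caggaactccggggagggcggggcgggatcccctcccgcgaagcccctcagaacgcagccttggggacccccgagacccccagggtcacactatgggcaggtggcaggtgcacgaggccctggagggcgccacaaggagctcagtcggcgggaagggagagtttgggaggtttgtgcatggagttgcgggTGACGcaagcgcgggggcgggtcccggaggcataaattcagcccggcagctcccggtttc
Jun: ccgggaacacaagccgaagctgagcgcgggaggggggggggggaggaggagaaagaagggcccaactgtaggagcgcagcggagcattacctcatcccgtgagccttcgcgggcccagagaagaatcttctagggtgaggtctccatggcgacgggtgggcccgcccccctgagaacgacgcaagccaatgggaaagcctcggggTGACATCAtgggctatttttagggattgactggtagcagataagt
Atf3: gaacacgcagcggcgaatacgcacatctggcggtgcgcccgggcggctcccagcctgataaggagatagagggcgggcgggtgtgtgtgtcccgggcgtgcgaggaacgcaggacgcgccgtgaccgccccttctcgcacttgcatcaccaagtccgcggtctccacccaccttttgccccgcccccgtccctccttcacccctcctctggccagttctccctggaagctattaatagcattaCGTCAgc
Klf6: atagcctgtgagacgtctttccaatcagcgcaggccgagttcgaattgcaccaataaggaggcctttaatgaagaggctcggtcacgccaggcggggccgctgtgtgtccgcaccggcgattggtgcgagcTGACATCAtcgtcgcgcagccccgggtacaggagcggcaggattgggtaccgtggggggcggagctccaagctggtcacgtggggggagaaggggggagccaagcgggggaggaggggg
Junb: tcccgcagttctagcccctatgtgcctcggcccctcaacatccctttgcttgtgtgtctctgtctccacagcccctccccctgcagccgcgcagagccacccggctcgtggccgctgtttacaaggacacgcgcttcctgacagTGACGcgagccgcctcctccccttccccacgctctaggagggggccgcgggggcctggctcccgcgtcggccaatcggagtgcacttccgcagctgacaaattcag

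The Fos window held TGACG at 129 to 125 and at 66 to 62 bases before the start, and TATAAA at 33 to 28. The Jun window held TGACATCA at 45 to 38 bases before the start, and the Klf6 window held the same letters at 119 to 112. TGACG lay 60 to 56 bases before the start of Fosb and 106 to 102 bases before that of Junb, and its reverse complement 7 to 3 bases before that of Atf3. Among 32851 RefSeq promoter windows of this length, TGACG on either strand was found in 17.8%, TGACNTCA in 7.49% and TATAAA in 7.59%. These windows belong to 27025 genes, protein-coding or not, with or without a peak. Of the 8 windows of the listed genes that the promoter table holds, 4 held TGACG, 2 held TGACNTCA and 1 held TATAAA. The first 2 of these motifs were added after the sequences had been read. The full element TGACGTCA, which contains the core, was in 1.55% of all windows, the AP-1 site TGANTCA in 6.75%, the CArG box of serum response factor in 1.47% and the ETS core CCGGAAG in 6.91%. None of these last 4 was in the 8 listed windows. Bases farther upstream were not searched, and Fosl1 and Egr1 had no window, so this does not show that the genes lack such sites. The EGR site GCGNGGGCG was in 4.70% of all windows and in those of Fosb and Fosl2, where it overlapped a GC box. The GC box GGGCGG was in 32.7% of all windows and in 6 of the 8 listed ones. All motifs but TATAAA were searched on both strands, and these matches describe letters, not bound sites.

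How strongly a peak was called is given as its percentile. The deposited score of each peak was ranked within its own library's list, so that 100 stands for the strongest peak of that library. Such a percentile orders peaks within a library, and lists of different lengths give different percentiles to the same region. The lists held 29217 and 31821 peaks in the mutants and 30225 and 22959 in the controls on chromosomes 1 to 19 and X. Control 2 was the shortest list, and over all 18904 regions held by every library its percentile was the lowest of the 4 in 64.7%. A second percentile was therefore taken among those 18904 regions alone, where the ranked set is the same in every library, and is called the shared-set percentile.

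**Figure D1:**
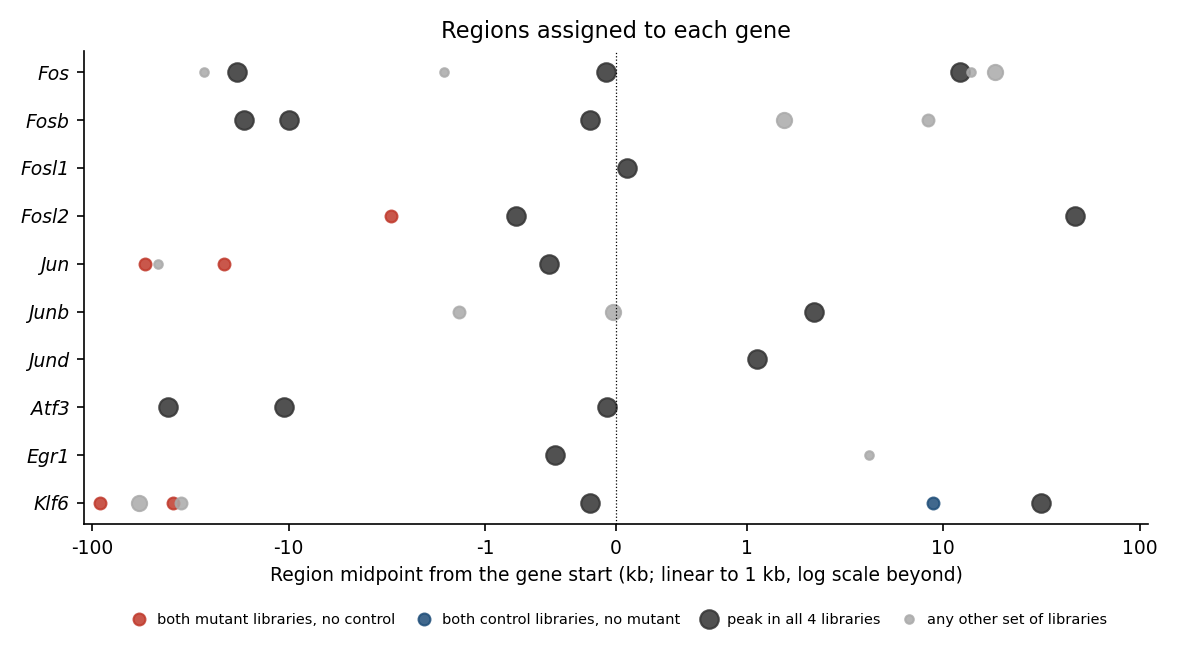
Regions assigned to each of the 10 genes, by the distance of the region's midpoint from the gene start in kb (linear within 1 kb, log scale beyond; negative is upstream). Larger points mark more libraries, and colour marks which libraries held a peak. For Fosl1 and Egr1, whose strand the gene tables used here do not give, the distance is from the gene end with the lower coordinate. The 18 regions held by all 4 libraries lie at every gene, and the 5 mutant-only regions lie at Fosl2, Jun and Klf6.

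Near the starts, within 1 kb, lay 11 of the 36 regions. For Fosl1 and Egr1, within 1 kb of either gene end was used. Of these 11 regions, 9 held a peak in all 4 libraries (81.8%), against 84.4% of all 12715 near-start regions. None was control-only (both control libraries and no mutant library) or mutant-only (the reverse), where the shares of all near-start regions were 0.385% and 1.15%.

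Klf6, which encodes a zinc finger factor induced by growth signals, and Jun had the strongest starts of the set. The Klf6 region at chr13:5860689-5861896 was at percentiles 98.0 and 98.9 in the mutants and 98.5 and 98.5 in the controls. The deposited fold enrichments, which are the authors' values for single peaks, were 9.70 and 10.4 in the mutants and 9.81 and 9.49 in the controls. Over whole lists their medians were 6.48 and 6.61 in the mutants and 6.86 and 6.89 in the controls. Unranked fold enrichments and their ranks can therefore order the libraries differently. The score percentiles and the unranked fold enrichments of the Klf6 start overlapped between genotypes. This region lay at percentile 95.1 or above among shared near-start regions in every library.

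Jun encodes a partner that many AP-1 dimers contain. Its start region at chr4:95051803-95053665 was at percentiles 98.3 and 97.8 in the mutants and 98.3 and 96.3 in the controls. The fold enrichments were 7.03 and 6.90 in the mutants and 6.87 and 6.19 in the controls. Control 2 was lowest on both measures. The score percentiles of the genotypes overlapped, whereas by fold enrichment both mutants lay above both controls.

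Jund, the most constitutively expressed Jun protein, had a single region, inside the gene and 502 bp from the annotated start (chr8:70698241-70699496). Its percentiles were 91.0 and 90.5 in the mutants and 90.7 and 87.1 in the controls, which overlapped. The fold enrichments did not overlap, at 5.88 and 5.79 in the mutants and 5.77 and 5.51 in the controls, but overlapped once ranked among shared regions.

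Junb, an early-induced Jun protein, had the start region called least. The region at chr8:84978453-84979082 was at percentiles 32.1 and 25.4 in the mutants and 49.2 in control 1, and control 2 held no peak there. A region on the other side of this short gene, 1.72 kb from the start (chr8:84976079-84977027), was held by all 4 libraries at 79.0 and 73.8 in the mutants and 73.9 and 69.4 in the controls. The peak past the gene was thus stronger than that at the start in every library that held both. Its fold enrichments were 5.49 and 5.19 in the mutants and 4.94 and 4.94 in the controls, with both mutants above.

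Fos, the prototype immediate early gene, had its start region at chr12:85473244-85474381. Percentiles were 86.0 and 85.6 in the mutants and 88.7 and 86.0 in the controls. Both mutant libraries lay below both controls, by a mean of 1.58 points, and control 2 at 86.01 exceeded mutant 1 at 85.96 by very little. On the shared-set scale the values were 78.3 and 75.7 in the mutants and 81.9 and 83.0 in the controls, a mean difference of −5.45 points. With 2 libraries a genotype the smallest two-sided exact permutation p is 0.3333, which this region gave, so no single region can pass a threshold here. By fold enrichment the libraries overlapped, at 5.81 and 6.08 in the mutants and 6.18 and 5.94 in the controls, and the difference in whole-list percentiles of fold enrichment was 3.72 points, of the opposite sign. Ranked by fold enrichment among shared regions, the difference was −1.80 points. Without control 1 the score difference was −0.257 points, and without control 2 it was −2.90.

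Fosb, which like Fos pairs with Jun proteins, had its start region at chr7:19309792-19310692, at percentiles 77.7 and 74.8 in the mutants and 80.3 and 64.3 in the controls. Fosl2, which encodes Fra-2, had one at chr5:32134922-32136490, at 69.1 and 78.4 in the mutants and 80.0 and 74.2 in the controls. Both sets of percentiles overlapped between genotypes. On the shared-set scale Fosb still overlapped, while Fosl2 was at 52.3 and 63.7 in the mutants and 68.0 and 68.7 in the controls, apart by a mean of −10.3 points (exact permutation p = 0.3333).

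Fosl1, which encodes Fra-1, had the weakest start region among those held by every library (chr19:5447320-5448249). Its percentiles were 48.7 and 32.7 in the mutants and 30.8 and 45.2 in the controls. The spread within each genotype was wider than the difference between their means, 2.70 points. Among shared near-start regions it lay between percentiles 2.57 and 17.7.

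Atf3, a stress-induced ATF protein that pairs with Jun, had its start region at chr1:191182546-191184260. Percentiles were 87.7 and 92.1 in the mutants and 89.8 and 74.7 in the controls. Control 2 stood below the other 3 libraries, also by fold enrichment, which was 6.60 and 8.10 in the mutants and 7.38 and 5.55 in the controls. Control 1 lay between the mutants, so the genotypes overlapped.

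Egr1, a zinc finger factor induced together with Fos, had a region over a gene end at chr18:34859693-34861787. Its percentiles were 89.1 and 91.7 in the mutants and 90.9 and 90.7 in the controls, and they overlapped. A second region near the other gene end, at chr18:34865074-34865761, was called in control 1 only, at percentile 7.12.

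**Figure D2:**
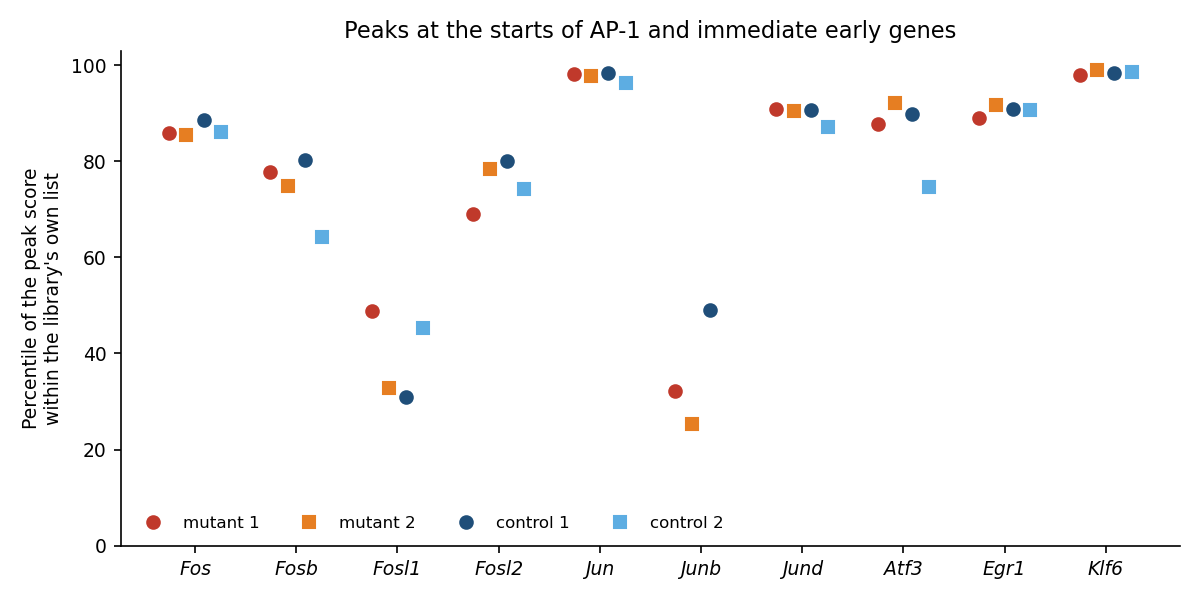
Percentile of the peak score within each library's own list (vertical axis, 100 is strongest) for the region at the start of each gene, with 1 point per library; the second Egr1 region is not drawn. Jun and Klf6 sit above 96 in every library, Fosl1 lies between 30.8 and 48.7, and Junb has no point for control 2.

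Set against shared near-start regions as a whole (10727 regions), 6 of the 9 listed ones were above the median in all 4 libraries and 1, that of Fosl1, was below it in all 4. Jun and Klf6 were above the 90th percentile of such regions in every library. The G and C content of the windows before the starts had a median of 64.6% over the 8 listed windows and 52.4% over all 32851, and the Jund window, at 47.6%, lay below the median of all. Those 32851 windows belong to 27025 genes, protein-coding or not, with or without a peak, so the sets are unlike.

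Away from the starts lay 25 regions, of which 9 were held by all 4 libraries (36%), against 30.8% of all 22087 distal regions within 100 kb of a gene. Their number differed between genes. Fos and Klf6 had 7 regions each in all, and 3.85% of 21631 protein-coding genes had as many or more. Fosb had 5, Jun 4, and Fosl2, Junb and Atf3 3 each. Egr1 had 2, and Fosl1 and Jund had 1. The median over all protein-coding genes was 1. The space to the neighbouring protein-coding genes also differed, from 12.1 kb in all at Junb to 1930 kb at Klf6.

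Fos had the strongest distal regions. One 17.7 kb upstream (chr12:85454852-85456154) was at percentiles 98.8 and 97.6 in the mutants and 98.2 and 97.0 in the controls, with fold enrichments of 11.3 and 10.7 in the mutants and 10.9 and 10.2 in the controls. Another 11.7 kb past the start (chr12:85485543-85486528) was at 93.3 and 92.6 in the mutants and 95.3 and 91.6 in the controls. Both overlapped between genotypes and ranked above the region at the Fos start in every library. Among 6801 shared distal regions they lay at or above percentile 97.1 in each library. On the shared-set scale the second was at 89.6 and 87.47 in the mutants and 92.5 and 89.7 in the controls, apart by a mean of −2.55 points.

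Fosb had a region 9.38 kb upstream (chr7:19319429-19320562) that was also strong. Its percentiles were 90.8 and 87.7 in the mutants and 85.6 and 78.1 in the controls, so both mutants lay above both controls by a mean of 7.38 points. On the shared-set scale the values were 85.8 and 79.3 in the mutants and 77.0 and 73.5 in the controls, a difference of 7.32 points (exact permutation p = 0.3333). Without control 2 the whole-list difference was 3.65 points, and without control 1 it was 11.1. The fold enrichments overlapped, at 9.96 and 8.89 in the mutants and 9.11 and 8.02 in the controls. Ranked within whole lists, they did not, with both mutants above by a mean of 9.985 points. Ranked among shared regions, they overlapped again.

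The region with the widest gap lay 31.1 kb past the start of Klf6 (chr13:5892601-5893546). Percentiles were 67.2 and 60.8 in the mutants and 53.9 and 24.4 in the controls, a difference of 24.9 points. The shared-set percentiles were 49.4 and 35.1 in the mutants and 28.3 and 13.3 in the controls, a difference of 21.4 points (exact permutation p = 0.3333). Fold enrichments were 7.61 and 7.05 in the mutants and 6.76 and 5.53 in the controls. It was the only listed region outside the 5th to 95th percentile of the difference over all shared regions, −13.9 to 14.2 points on the shared-set scale. Control 2 held the lowest value, and the whole-list difference was 10.1 points without it and 39.6 without control 1.

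Fosl2 had a weak region 46.4 kb past its start (chr5:32182889-32183916), at percentiles 17.2 and 18.3 in the mutants and 20.4 and 28.6 in the controls. Both mutants lay below both controls, by a mean of 6.68 points, and control 2 alone was far from the other 3. Its shared-set percentile was 16.99, against 2.08 to 2.82 in the other libraries. Without control 2 the whole-list difference was −2.57 points, and without control 1 it was −10.8. The fold enrichments overlapped, at 5.38 and 5.53 in the mutants and 5.53 and 7.18 in the controls. In lists of equal length control 2 alone held this region, so the comparison could not be made there.

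Atf3 had a pair of upstream regions in all 4 libraries. The one 40.6 kb away (chr1:191223955-191225431) was at 74.1 and 63.6 in the mutants and 66.4 and 48.6 in the controls. The one 10.1 kb away (chr1:191193422-191194464) was at 56.0 and 50.8 in the mutants and 51.0 and 34.4 in the controls. Control 2 was lowest in both, and control 1 lay between the mutants. By fold enrichment the nearer region did not overlap, at 6.53 and 6.56 in the mutants and 6.39 and 5.71 in the controls. A second Fosb region, 16.1 kb upstream (chr7:19326174-19327629), was at 41.8 and 41.1 in the mutants and 46.0 and 27.2 in the controls, and overlapped too.

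Over the 18 shared regions on whole-list percentiles, both mutants were above both controls at 2 (Fosb 9.38 kb upstream and Klf6 31.1 kb past the start), where 29.1% of all 18904 shared regions were. Both mutants were below both controls at 2 (the Fos start and Fosl2 46.4 kb away), where 5.62% of all were. The median difference, mutant minus control, was 2.30 points over the 18 and 3.29 over all. On the shared-set scale 2 of the 18 were higher in the mutants and 4 lower, beside 17.6% and 18% of all, and the median difference was −0.0278 points, beside −0.0225 over all. Of the 9 near the starts, 0 were higher and 2 lower on that scale, beside 15.9% and 18.6% of shared near-start regions. The 4 lower regions were the starts of Fos and Fosl2, Fos 11.7 kb past the start and Fosl2 46.4 kb away. Ranked by fold enrichment instead, 9 of the 18 were higher in the mutants and 0 lower on whole lists, where 25.9% and 9.32% of all were, and 4 were higher and 2 lower among shared regions, where 17.4% of all were in each direction. The 9 on whole lists included the starts of Jun, Jund, Egr1 and Klf6. The rest lay at Fos 17.7 kb, Fosb 9.38 kb, Junb 1.72 kb, Atf3 10.1 kb and Klf6 31.1 kb from the start. At Fos 17.7 kb, Fosb 9.38 kb and the starts of Egr1 and Klf6, the unranked fold enrichments overlapped. The 4 higher among shared regions were the Jun start, Junb 1.72 kb, Atf3 10.1 kb and Klf6 31.1 kb from the start. The 2 lower were the Fosl2 start and Fos 11.7 kb past the start.

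**Figure D3:**
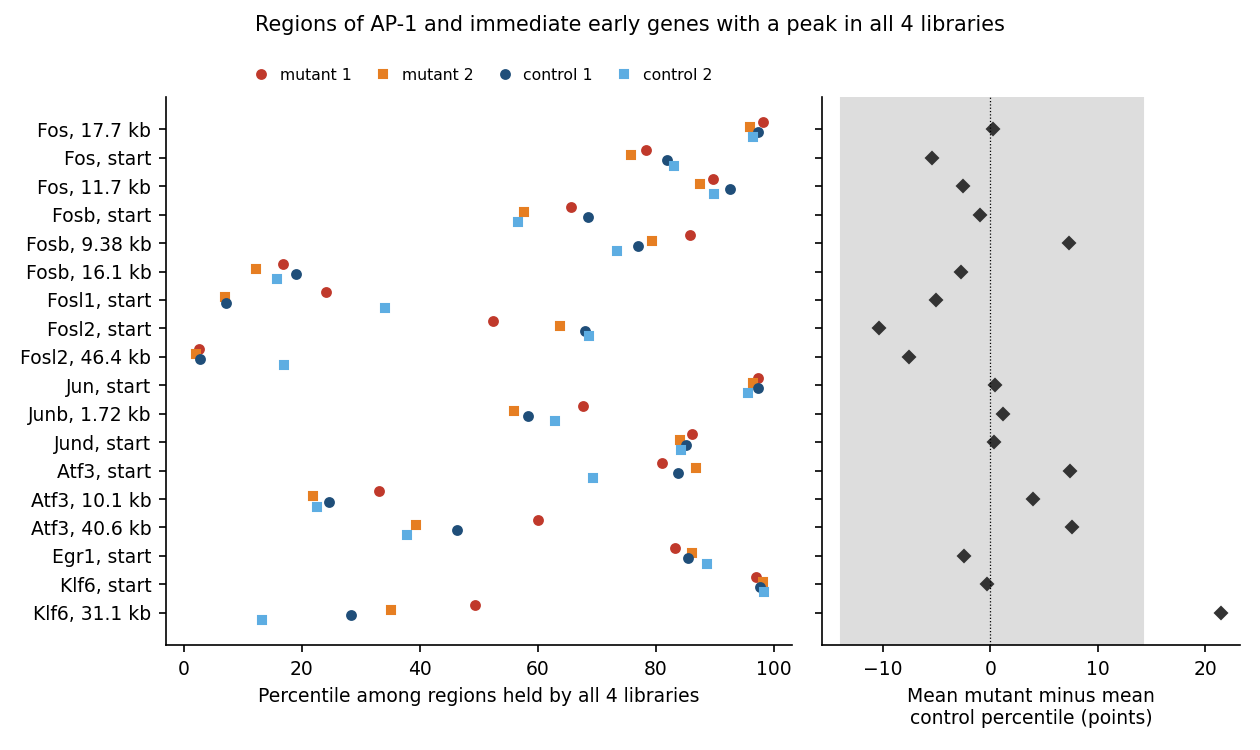
The 18 regions held by all 4 libraries, 1 row each, named by gene and distance from the start. Left, shared-set percentile in each library; right, mean mutant minus mean control percentile in points, with the grey band from the 5th to the 95th percentile of that difference over all 18904 shared regions (−13.9 to 14.2). Only the Klf6 region at 31.1 kb, at 21.4 points, lies outside the band.

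Control 2, the shortest list, held the fewest listed regions, and mutant 2, the longest, the most. Mutants 1 and 2 held 28 and 31 of the 36 regions, and controls 1 and 2 held 27 and 21. Over all regions the shares were 72.8% and 79.4% in the mutants and 75.4% and 57.2% in the controls. Of the 18 regions not held by every library, control 2 lacked 15, control 1 lacked 9, mutant 1 lacked 8 and mutant 2 lacked 5. Peaks in the distal ones had percentiles of 0.640 to 46.9.

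Mutant-only regions numbered 5 of 36 (13.9%), all distal, where 4.47% of all regions and 5.66% of all distal regions were mutant-only. Jun had 2, at 20.9 kb upstream (chr4:95073089-95074016, percentiles 39.2 and 26.6 in the mutants) and 53.1 kb upstream (chr4:95105288-95106643, 19.6 and 17.4). Klf6 also had 2, at 38.5 kb upstream (chr13:5822283-5823019, 21.9 and 17.1) and 91.3 kb upstream (chr13:5769549-5770144, 7.64 and 17.4). The last lay 2.48 kb upstream of Fosl2 (chr5:32132902-32133994, 13.3 and 15.4). Neither control list held a peak in any of them. The 1 control-only region (1.07% of all regions were such) lay among the distal regions (1.46% of all distal ones were such), over the far end of Klf6 at chr13:5869719-5871083, at percentiles 31.4 and 14.8 in the controls.

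With every list cut to its 22959 strongest peaks, the listed genes kept 26 regions, and the libraries held 21 and 20 of them in the mutants and 21 and 21 in the controls. None was then mutant-only, where 2.39% of all regions were. The 2 mutant-only regions that still held a peak, at Jun 20.9 kb upstream and Klf6 38.5 kb upstream, held it in mutant 1 alone, and the other 3 held none. In mutant 2 all 5 had lain at percentile 26.6 or below, in the part cut off, so their loss there was fixed by the cut. The control-only region of Klf6 remained control-only, where 2.14% of all regions were. That was fixed too, as control 2 was not shortened and the peak in control 1, at percentile 31.4, lay above the cut. Without control 2, 5 regions were in both mutants and not in control 1, where 6.34% of all were. Control 2 had the shortest list. Control 1, which lacked the same 5 regions, had 30225 peaks, more than the 29217 of mutant 1. Why these regions had no call was not tested, and a region without a call was not shown to be closed.

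**Figure D4:**
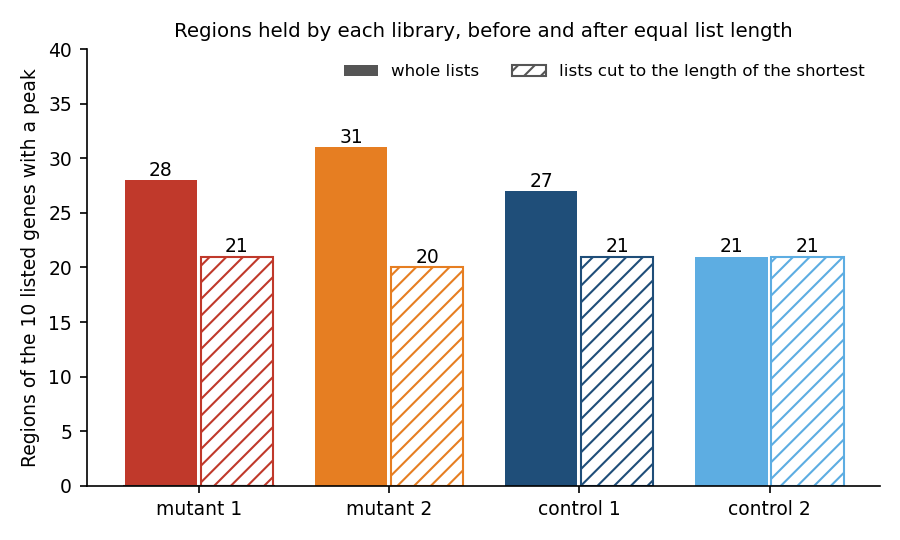
Number of the listed genes' regions with a peak in each library, from whole lists (filled bars) and from lists cut to the length of the shortest (hatched bars). Whole lists hold 28 and 31 regions in the mutants and 27 and 21 in the controls; lists of equal length hold 21 and 20 in the mutants and 21 and 21 in the controls.

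At the edge of the 100 kb limit, the farthest regions inside it were those of Klf6 at 91.6 and 57.5 kb from the gene. The nearest outside it were 2 of Jun, at 101.7 kb (chr4:95153611-95154250), held by mutant 1 at percentile 13.7, and at 109.2 kb (chr4:95160959-95161934), held by all 4 libraries at 97.7 and 98.1 in the mutants and 97.6 and 95.7 in the controls. In all, 19 regions had a listed gene as the nearest but lay beyond the limit, at Jun and Klf6.

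Other genes of the same responses were counted from lists of 18 further bZIP genes and 42 further immediate early and dissociation response genes. Of the bZIP genes 16 had at least 1 region, 36 in all, of which 2 were mutant-only and 0 control-only. Of the immediate early and dissociation genes 41 had at least 1 region, 145 in all, of which 2 were mutant-only and 1 control-only. The mutant-only shares were 5.56% and 1.38%, beside 4.47% of all regions, and 1.07% of all regions were control-only. On the shared-set scale the bZIP genes had 4 regions higher and 7 lower in the mutants of 21 shared, and the immediate early genes 9 higher and 16 lower of 78. The median differences were −0.713 and −1.50 points. The 16 heat shock genes had 1 higher and 7 lower of 18 shared regions, with a median of −1.98 points and no genotype-specific region. The 18 ubiquitously used genes had 4 higher and 4 lower of 20, with a median of −0.105 points. The shares of all 18904 shared regions, 17.6% higher and 18% lower, stand beside each of these counts of higher and lower regions.

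The number of immediate early genes with a called start differed by 1 between libraries. Of the 42 genes, 39 and 40 had a near-start peak in the mutants and 40 and 40 in the controls. Over all 21631 protein-coding genes the shares were 52.6% and 53.5% in the mutants and 53.3% and 50.5% in the controls. Of the 16 heat shock genes 13 had one in each library, and of the 18 bZIP genes 16 and 16 in the mutants and 16 and 15 in the controls.

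Mutant-only regions of these lists lay 17.2 kb from Batf3, a bZIP partner of Jun proteins (percentiles 50.8 and 51.04 in the mutants), 11.6 kb from Nfil3, a bZIP repressor (27.6 and 36.3), inside Nr4a3, an orphan nuclear receptor (8.86 and 14.2), and 54.6 kb from Errfi1, a feedback inhibitor of EGF receptors (30.9 and 4.11). A control-only region lay 37.8 kb from Zfp36l2, which encodes an RNA decay factor (14.7 and 3.16 in the controls). Among shared regions, the widest gaps between the nearest libraries of the genotypes with the mutants below lay at Bag3 and Jdp2. Near Bag3, a heat shock co-chaperone gene, a region 6.48 kb away was at 43.9 and 30.7 in the mutants and 65.8 and 55.8 in the controls. Jdp2, a bZIP repressor of AP-1 and the neighbour of Fos on chromosome 12, had a region at its start at 57.8 and 56.8 in the mutants and 71.5 and 60.05 in the controls. A second one 26.4 kb from the gene was at 65.4 and 63.9 in the mutants and 72.03 and 71.8 in the controls. Among the widest gaps with the mutants above were those at the start of Gusb, which encodes a lysosomal enzyme (60.6 and 36.5 in the mutants, 27.2 and 25.1 in the controls), and 53.4 kb from Pim1, which encodes a kinase (47.8 and 31.1 in the mutants, 22.8 and 14.3 in the controls). The Gusb and Pim1 regions overlapped between genotypes on the shared-set scale. The Bag3 and Jdp2 regions stayed apart on it. Their differences were −33.5 points at Bag3, −20.5 at the Jdp2 start and −17.25 at the second Jdp2 region. All these regions were picked for their wide gaps.

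The sorted cells were checked by the starts of marker genes. Of 18 palatal mesenchyme markers, 10 and 12 had a near-start peak in the mutants and 14 and 13 in the controls, beside the 52.6% and 53.5% of all genes in the mutants and 53.3% and 50.5% in the controls. The count in mutant 1 was near that share. Fewer of the 10 markers in most other lists had one, 4 and 4 in the mutants against 5 and 3 in the controls for epithelium, 2 and 4 against 3 and 1 for endothelium, 1 in each library for blood and immune cells, and 1 and 0 against 1 and 1 for skeletal muscle. Of 10 neuron and glia markers, 6 had one in each library, which is near the share of all genes. An open start is not expression, and the part of other cells in the results above was not tested.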

How the data were processed

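ATAC-seq was run on 2 mutant and 2 control libraries, grouped by the genotype in the labels. For each library the authors deposited a list of peaks in the narrowPeak columns, with no header line; the build is mm10, per the submitters' processing notes. How reads were aligned, whether cut sites were shifted and how peaks were called, no source used here states. By comparison of columns, the deposited score equalled the whole part of 10 times the deposited −log10 p-value in 29223 of 29225 and 31832 of 31832 rows in the mutants and 30239 of 30239 and 22963 of 22966 rows in the controls. The deposited fold enrichment is a ratio to a background that no source states, and the deposited −log10 q-value belongs to single peaks. Peak names are numbered, and the lists held 25.8% and 26.7% of the numbers in the mutants and 27.8% and 23.8% in the controls, so peaks had been removed after numbering by an unstated filter. Read depth cannot be had from these lists, and values carry no counting error.

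Peaks of chromosomes 1 to 19 and X that overlapped were joined at 1 shared bp and assigned by midpoint to the nearest of 21631 protein-coding genes of GRCm38.p6. Starts came from the RefSeq promoter table, which holds 8 of the 10 genes. A percentile is the mid-rank of the score. Genotypes were set side by side by presence of a call and by non-overlap of percentiles, beside the share over all regions, with the exact permutation test over libraries for single regions. The steps were tested on simulated data with known changes. The members and lists were chosen with earlier results of these data known. All listed genes are named; of the other lists, named are up to 5 genes with a genotype-specific region and the 3 widest gaps per direction, of which 1 is not reported here. Python 3.11.15, pandas 2.3.3, numpy 2.4.6 and matplotlib 3.10.9 were used.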

Additional observations from a re-analysis of the deposited data

How the results depend on the processing

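Read depth is unknown, and 2 libraries a genotype allow no exact p under 0.3333. Of the whole-list counts (1 control-only, 5 mutant-only, 2 higher and 2 lower in the mutants), several moved by over 1.5 times, and the cause was not tested except where a setting holds fewer peaks or libraries by construction. In the upper 50% of each list they were 0 and 0 of 15 and 1 and 1 of 12 (all regions 0.307%, 3.46%, 28.4% and 5.82%). With lists of equal length mutant-only regions were 0 of 26 (2.39% of all) and regions lower in the mutants 4 of 17 (18%); ranking those lists among shared regions, a setting added after the data were seen, gave 0 and 4 again (2.39% and 17.7%). Ranked among shared regions of whole lists, 4 of 18 were lower (18%). By fold enrichment 9 were higher and 0 lower (25.9% and 9.32%), and by fold enrichment among shared regions (added later) 4 were higher (17.4%). Within 50 kb of the genes mutant-only regions were 3 of 33 (4.47%). The replicate block, differences within same-numbered libraries, gave 7 of 18 higher, beside 38.4% of all; the correlation of the numbers' deviations was 0.0273 over 18904 regions, and the labels give the numbers no meaning. Leaving out 1 library, where fewer libraries had to agree, gave 1 to 3 control-only, 5 to 8 mutant-only, 4 to 11 higher and 2 to 8 lower. Without control 1 these were 8 of 34 mutant-only and 11 of 18 higher (13.9% and 70.9% of all). Without control 2 they were 3 of 36 control-only and 4 higher and 8 lower of 21 (8.45%, 34.1% and 32.1%). Without mutant 1, 6 of 19 were higher (52.5%), and without mutant 2, 2 of 35 were control-only and 8 higher and 5 lower of 18 (3.69%, 40.4% and 18.2%). The median difference ran from 0.0112 to 3.65 points with a library left out and from −0.0278 to 6.44 under the other settings, within 4.25 points of its value of 2.30, the spread between libraries of a genotype. The difference at the Fos start changed sign by whole-list fold enrichment (3.72 points) and in no other setting, and by fold enrichment among shared regions it was −1.80 points. Both mutants lay below both controls there in 13 of 15 other settings, and at Fosl2 46.4 kb away in 10 of 12. Klf6 31.1 kb past the start stayed higher, with no overlap, in the 14 other settings in which every library used held it, and Fosb 9.38 kb upstream in 14 of 15, overlapping by fold enrichment among shared regions. Leaving out a library or pairing by number could not undo a separation present in the whole lists. The 50 kb, 50% overlap and edge settings left the percentiles of these regions unchanged. None of those settings could therefore have ended a separation. The upper 50% setting mostly rescaled the percentiles of regions it kept, with −3.15 points at the Fos start and 14.75 at Fosb 9.38 kb upstream. Ranking by −log10 q nearly repeated the score ranking, with −1.58 and 7.37 points there. These settings could hardly have ended a separation either. The separations at the Fos start and at Fosl2 46.4 kb away ended by fold enrichment, on whole lists and among shared regions. Merging at 50% overlap, −log10 q and assignment by region edge changed none of these counts.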
